A study of Homo sapiens with 6 samples.

Results

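PPP1R14C and ANXA3 were lower than in control cells after siRNA against the histone variant H3.Y and higher after siRNA against H3.X and H3.Y together. They are described here with family members that serve as a contrast, PPP1R14A, PPP1R14B and PPP1R14D for the first and ANXA1, ANXA2, ANXA4, ANXA5 and ANXA6 for the second. PPP1R14C and ANXA3 were chosen from these values, because both were called in opposite directions against the control, so their own levels and differences are given as a description with no test. The family members were chosen by name, with earlier results of these data known, and are tested. Of the 10 genes, 9 had a probe set that carried exactly 1 gene symbol, and these 9 probe sets stand among 19460 such probe sets and 33297 in all. The 1 probe set that lists PPP1R14B also lists another gene, so PPP1R14B is not analysed here.

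The cells were U2OS, an established human osteosarcoma line, and H3.X and H3.Y are primate-specific variants of histone H3. All cells, controls included, received siRNA in 2 rounds of transfection, and RNA was taken 4 days later. The 6 arrays made 3 groups of 2. Control cells received siRNA against luciferase, another group siRNA against H3.Y, and the last siRNA against H3.X as well as H3.Y, which is termed the combined knockdown. The word knockdown names the siRNA given, as levels of H3.X and H3.Y are not reported here. All groups are of 1 cell line, and the labels do not say whether the combined group received pooled siRNAs or a shared one. Arrays of a group are labelled biological replicates with no word on how cultures were separated. The p-values thus reflect only the spread of arrays within groups, pooled over the groups and moderated across all probe sets. Values are log2 expression per probe set as deposited, on arrays whose medians lay between 5.10 and 5.14, and their number limits the precision. Correlations across probe sets were 0.986 to 0.992 within groups and 0.978 to 0.987 between groups. In such bulk RNA, fewer cells of a type and less RNA per cell cannot be told apart. Across 7 mesenchymal and osteoblast markers the mean was 9.14 to 9.40 on the combined arrays and 8.20 to 8.39 on the others. Of these, vimentin (VIM) lay at 10.69 to 10.95 on all arrays and was not typical of the list. The other 6 were higher in the combined knockdown than in luciferase cells, most of all FN1 by log2 2.37 and COL1A1 by 1.58. In contrast, 4 measured blood markers and 3 endothelial markers lay between 1.89 and 4.74. The epithelial marker EPCAM had 2 probe sets, both higher in the combined knockdown. The first lay at 4.97 and 5.14 in luciferase cells, 4.65 and 5.05 after H3.Y siRNA and 7.41 and 7.21 in the combined knockdown. The other lay at 4.96 and 5.15, 3.34 and 4.34, and 7.69 and 7.88, the order of PPP1R14C and ANXA3 with no overlap. The mean of 5 epithelial markers was 7.04 to 7.31 on luciferase arrays, 6.77 to 7.07 on H3.Y arrays and 7.84 to 7.94 on combined arrays. EPCAM was not typical of this list. In the combined knockdown its brightest probe set differed from luciferase by log2 2.25, CDH1 by 0.59, KRT8 by 0.46, KRT19 by 0.23 and KRT18 by 0.05. KRT8 lay at 10.14 to 11.58 over all arrays, and the brightest KRT18 probe set at 9.73 to 10.93. The part of these marker differences in the results was not tested.

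PPP1R14C, also known as KEPI, belongs to a family of small proteins that inhibit protein phosphatase 1 once protein kinase C has phosphorylated them. PPP1R14A, or CPI-17, is the member best known from smooth muscle, where inhibition of myosin phosphatase keeps myosin light chains phosphorylated and the cell contracted. Annexins are proteins that bind acidic phospholipids of membranes when calcium rises. They take part in membrane repair, in vesicle traffic and, at the cell surface, in coagulation and fibrinolysis.

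The sequences upstream of the transcription start sites of PPP1R14C and ANXA3, which moved together, and of ANXA1, the 1 tested member whose arrays fell in the same order, are shown because a reader may ask what these start sites share. They are the 250 bases before the start in the RefSeq promoter table of GRCh38.p14, which held all 10 genes, and all 3 lie on the plus strand. The windows are chr6:150142794-150143043 for PPP1R14C, chr4:78551520-78551769 for ANXA3 and chr9:73151615-73151864 for ANXA1. Capitals mark matches on either strand to the GC box GGGCGG, the TATA box TATAAA, the CCAAT box CCAAT, the AP1 site TGANTCA, the MCAT element GGAATG or the E box CACGTG.
PPP1R14C: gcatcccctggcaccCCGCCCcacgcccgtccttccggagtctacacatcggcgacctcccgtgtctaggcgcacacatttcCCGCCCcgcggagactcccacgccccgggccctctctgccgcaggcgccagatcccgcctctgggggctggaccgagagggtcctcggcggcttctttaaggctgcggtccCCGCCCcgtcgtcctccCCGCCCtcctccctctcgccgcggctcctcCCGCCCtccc
ANXA3: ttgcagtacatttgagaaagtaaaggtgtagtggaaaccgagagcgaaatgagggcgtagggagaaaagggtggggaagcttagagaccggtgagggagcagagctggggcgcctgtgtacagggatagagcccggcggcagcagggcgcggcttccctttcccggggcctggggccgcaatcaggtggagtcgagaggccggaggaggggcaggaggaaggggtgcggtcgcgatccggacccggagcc
ANXA1: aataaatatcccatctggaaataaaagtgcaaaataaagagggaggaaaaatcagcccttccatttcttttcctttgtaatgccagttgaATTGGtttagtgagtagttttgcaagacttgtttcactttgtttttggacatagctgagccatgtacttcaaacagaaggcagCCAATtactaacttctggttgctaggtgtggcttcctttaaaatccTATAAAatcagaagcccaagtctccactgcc

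The PPP1R14C window held 5 GC boxes and 28 CG dinucleotides at a GC content of 74.0%. The ANXA3 window held no match to any motif searched, 18 CG dinucleotides and a GC content of 64.0%. The ANXA1 window held 1 TATA box and 2 CCAAT boxes, 0 CG dinucleotides and a GC content of 38.4%. These 3 windows thus shared no motif searched, and their GC content was higher than that of 87.7%, 64.4% and 10.1% of all 35116 promoters in turn. Among all promoters of the same length, 42.6% held a GC box, 10.7% a TATA box, 32.0% a CCAAT box, 6.57% an AP1 site, 11.9% an MCAT element and 6.34% an E box. Among the other measured members, the window of PPP1R14A held 4 GC boxes, that of PPP1R14D 0, that of ANXA2 3 and that of ANXA5 1. The windows of ANXA4 held 5 and 3, and those of ANXA6 1 and 0. Whether any motif bears on the levels was not tested.

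PPP1R14C lay at 6.85 and 6.81 log2 units on the luciferase arrays, at 5.25 and 5.55 after H3.Y siRNA and at 8.04 and 7.96 in the combined knockdown. Both H3.Y arrays were thus below both luciferase arrays, both combined arrays were above them, and no groups overlapped. The group means were 6.83 ± 0.03 (SD, n = 2), 5.40 ± 0.21 and 8.00 ± 0.05. Against luciferase the difference was log2 -1.43 ± 0.15 (SE) after H3.Y siRNA, or 2.70-fold lower, and 1.17 ± 0.15 in the combined knockdown, or 2.24-fold higher. These differences share the luciferase arrays. Between the knockdowns the probe set was 6.05-fold higher in the combined one, a log2 difference of 2.60 ± 0.15.

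ANXA3, an annexin known from neutrophil granules, lay at 6.76 and 6.66 on the luciferase arrays, at 5.60 and 5.44 after H3.Y siRNA and at 7.53 and 7.66 in the combined knockdown. The order of the groups was that of PPP1R14C, again with no overlap. Group means were 6.71 ± 0.07 (SD, n = 2), 5.52 ± 0.11 and 7.59 ± 0.09. The difference from luciferase was log2 -1.19 ± 0.14 (SE) after H3.Y siRNA, or 2.28-fold lower, and 0.88 ± 0.14 in the combined knockdown, or 1.84-fold higher. The combined knockdown lay 4.20-fold above the H3.Y knockdown, at a log2 difference of 2.07 ± 0.14. Over the 6 arrays the levels of ANXA3 and PPP1R14C had a Pearson r of 0.988, which describes arrays that fall into 3 groups and carries no p.

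**Figure D1:**
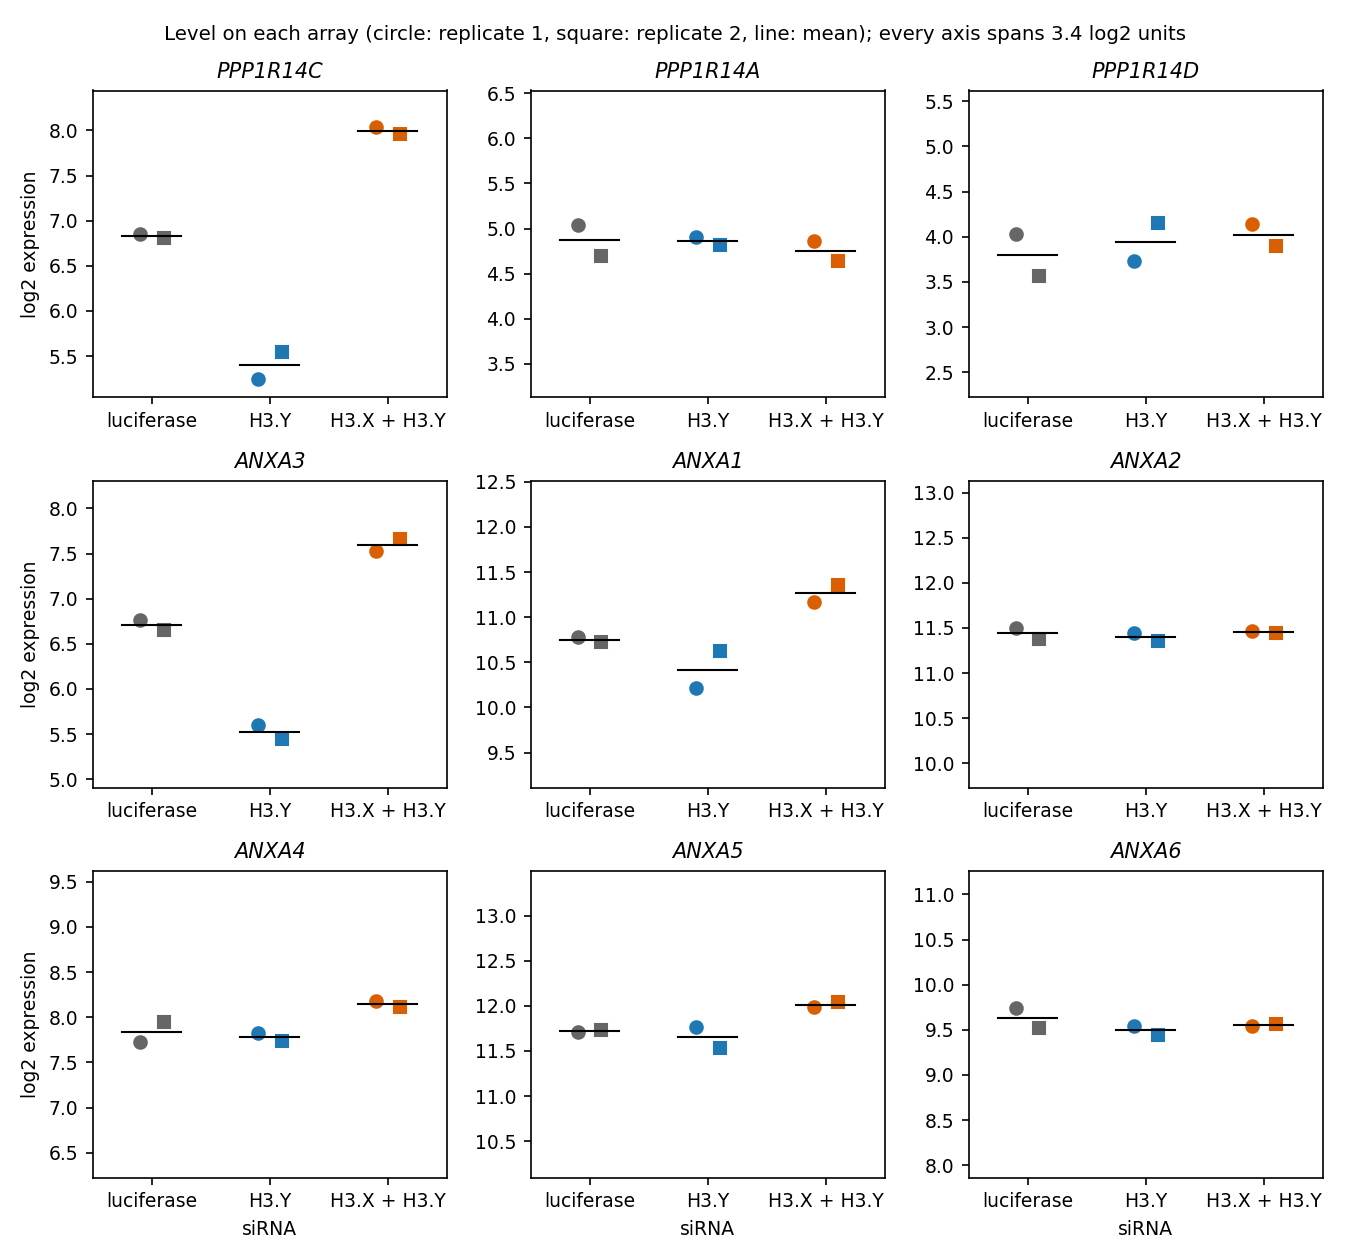
Level of each measured member on each of the 6 arrays in log2 expression units, with 1 panel a gene, circles for replicate 1, squares for replicate 2 and lines for group means. Every vertical axis spans the same number of log2 units around the gene's own mean. PPP1R14C and ANXA3 step down after H3.Y siRNA and up in the combined knockdown, and ANXA1 has the same order with smaller steps. PPP1R14A, PPP1R14D, ANXA2, ANXA4, ANXA5 and ANXA6 each stay within 0.593 log2 units over all arrays. In ANXA4 and ANXA5 both combined arrays are the highest.

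The choice of both genes rested on calls by limma at an adjusted p under 0.05 over all probe sets. After H3.Y siRNA 0.279% of all probe sets were called in either direction, 0.0841% higher and 0.195% lower. The combined knockdown had 1.84% called against luciferase, 0.859% higher and 0.985% lower. From the H3.Y to the combined knockdown 4.67% were called, 2.74% higher and 1.92% lower. A share of 0.00901%, or 3 probe sets, was called against luciferase in opposite directions, and the third was COL6A3, a collagen VI chain. COL6A3 lay just inside the threshold, with differences of log2 -1.41 and 0.90 and an adjusted p of 0.0485 in the combined knockdown. Just outside it lay LCTL at log2 -1.23 and 1.84 (adjusted p 0.0508 after H3.Y siRNA) and EDIL3, a secreted integrin ligand, at -1.66 and 1.69 (0.0551). The choice was thus a narrow one. Without luciferase replicate 1 or 2, or without combined replicate 1 or 2, limma called 0 probe sets in either comparison with luciferase, at 2852 to 3897 probe sets with an unadjusted p under 0.05. Without H3.Y replicate 1 neither gene was called after H3.Y siRNA, and PPP1R14C then differed by -1.28. Over these leave-one-out fits PPP1R14C stayed between log2 -1.58 and -1.28 after H3.Y siRNA and between 1.13 and 1.20 in the combined knockdown, and ANXA3 between -1.27 and -1.11 and between 0.82 and 0.95.

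The other PPP1R14 genes did not pass the test in any comparison. PPP1R14A lay at 5.04 and 4.70 in luciferase cells, 4.91 and 4.82 after H3.Y siRNA and 4.87 and 4.64 in the combined knockdown, so all groups overlapped. Its difference was log2 -0.01 ± 0.17 (95% interval -0.42 to 0.40) after H3.Y siRNA and -0.12 ± 0.17 (-0.52 to 0.29) in the combined knockdown, with adjusted p of 0.99 and 0.86 in limma. PPP1R14D, the gut and brain form of the inhibitor, lay at 4.03 and 3.56, 3.73 and 4.16, and 4.14 and 3.90 in the same order. Its arrays overlapped between all groups and fell within the range of the blood markers, so whether the transcript is present cannot be told from this probe set. The differences were 0.14 ± 0.23 (95% interval -0.40 to 0.69) and 0.22 ± 0.23 (-0.32 to 0.77), with adjusted p of 0.85 and 0.78. Between the knockdowns PPP1R14A differed by -0.11 ± 0.17 (-0.52 to 0.30) and PPP1R14D by 0.08 ± 0.23 (-0.46 to 0.62). The intervals of both probe sets leave out differences as large as those of PPP1R14C in either knockdown, a gene chosen for its differences. PPP1R14A, at 4.64 to 5.04, also lay near the blood markers, which reached 4.74. At such levels neither probe set can exclude a transcript change of that size.

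Of the 5 annexins tested as family members, ANXA1 came closest to the pattern of ANXA3. ANXA7, from a further list given below, had larger differences from luciferase, of log2 -0.54 and 0.63. ANXA1, or lipocortin, is an anti-inflammatory protein whose peptide acts on formyl peptide receptors. It lay at 10.78 and 10.72 on the luciferase arrays, 10.22 and 10.62 after H3.Y siRNA and 11.17 and 11.36 in the combined knockdown. The groups did not overlap and stood in the order of ANXA3, an order that 3.92% of all probe sets had, while 3.49% had the reverse order. Among the 7 tested members ANXA1 was the 1 with this order. Its differences from luciferase were log2 -0.33 ± 0.17 (adjusted p = 0.48 in limma) and 0.52 ± 0.17 (adjusted p = 0.23). Between the knockdowns it was 1.80-fold higher in the combined one, at log2 0.85 ± 0.17 and a limma adjusted p of 0.0503 that just missed the threshold. Without H3.Y replicate 2 the adjusted p was 0.034, and over all fits that left out 1 array it ran from 0.034 to 0.26. The spread of the H3.Y arrays of this gene, an SD of 0.29, exceeded that of the luciferase arrays at 0.04.

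ANXA4 and ANXA5 were a little higher in the combined knockdown and did not pass the test. ANXA4, an annexin of epithelia, lay at 7.73 and 7.95 in luciferase cells, 7.82 and 7.73 after H3.Y siRNA and 8.18 and 8.12 in the combined knockdown. ANXA5, the phosphatidylserine binder used to stain dying cells, lay at 11.71 and 11.73, 11.76 and 11.54, and 11.98 and 12.04. In both genes the combined arrays were above the 4 others while luciferase and H3.Y arrays overlapped. Both combined arrays were above the 4 others for 3 of the 7 tested members, namely ANXA1, ANXA4 and ANXA5, and for 11.9% of all probe sets. Counting only arrays of the knockdowns, 4 of the 7 tested members, these 3 and ANXA6, had both combined arrays above both H3.Y arrays, as had 21.2% of all probe sets. Against luciferase the combined difference was log2 0.31 ± 0.14 (95% interval -0.03 to 0.64) for ANXA4 and 0.30 ± 0.14 (-0.04 to 0.63) for ANXA5, with limma adjusted p of 0.37 and 0.40. Between the knockdowns it was 0.37 ± 0.14 and 0.36 ± 0.14, with adjusted p of 0.22 for each. After H3.Y siRNA the differences were -0.06 and -0.07, with adjusted p of 0.90 and 0.89.

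ANXA2, the subunit of a cell surface complex with S100A10 that binds plasminogen and its activator, held nearly the same value on every array. It lay at 11.51 and 11.37, 11.45 and 11.36, and 11.46 and 11.44, a range of 0.15 log2 units. Its 3 differences lay between log2 -0.04 and 0.05 with an SE of 0.13, and the widest 95% limit was 0.36. The pseudogene ANXA2P2 is a near-identical copy with a probe set of its own, at 11.05 to 11.19, so the ANXA2 probe set may also read its transcripts. ANXA6, which carries a doubled annexin core, lay at 9.74 and 9.52, 9.54 and 9.45, and 9.55 and 9.56. Its differences from luciferase were -0.14 ± 0.14 and -0.08 ± 0.14, and 0.06 ± 0.14 between the knockdowns, with limma adjusted p between 0.73 and 0.89.

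In limma 0 of the 7 tested members were called in each of the 3 comparisons. At an unadjusted p under 0.05 there were 0 after H3.Y siRNA, 1 for the combined group against luciferase and 3 when the knockdowns were compared, beside 13.9%, 15.3% and 19.0% of all probe sets. The median difference of the 5 tested annexins was log2 -0.07 after H3.Y siRNA, 0.30 in the combined group against luciferase and 0.36 for combined against H3.Y, set beside 0.02, 0.00 and -0.03 over all probe sets. Counts of 0 among 7 stand beside background shares of 0.279%, 1.84% and 4.67%, so they say nothing particular about these genes.

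**Figure D2:**
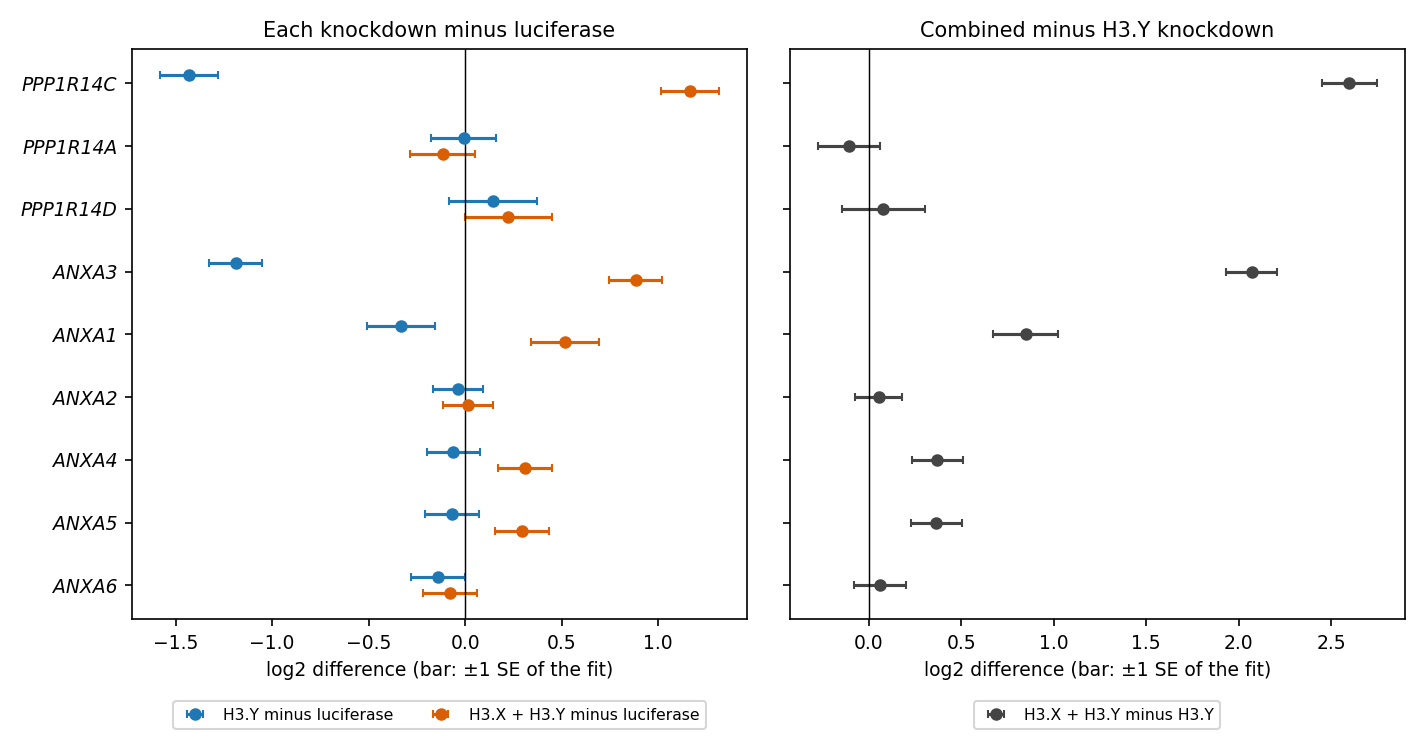
Log2 differences of the 9 measured members, with bars of 1 SE of the limma fit, for each knockdown against luciferase (left) and for the combined against the H3.Y knockdown (right). PPP1R14C and ANXA3, chosen for their opposite differences, lie at log2 2.60 and 2.07 on the right, ANXA1 at 0.85, and the other members between -0.11 and 0.37.

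Likeness to either gene was measured as Pearson's r over the 6 arrays, among 2557 probe sets of other named genes with 1 symbol and a range of at least 1 log2 unit. The 5 probe sets most like PPP1R14C were those of APBB2, an adaptor of the amyloid precursor protein (r = 0.997), the hydroxysteroid dehydrogenase HSD17B8 (r = 0.997) and COL6A3 (r = 0.996). HSD17B8 took 3 of the 5 places with identical values, so these count as 1 reading. APBB2 lay at 8.72 and 8.70 in luciferase cells, 8.12 and 8.20 after H3.Y siRNA and 9.15 and 9.04 in the combined knockdown, smaller steps than those of PPP1R14C. COL6A3 lay at 8.83 and 8.70, 7.24 and 7.47, and 9.76 and 9.56, with a difference after H3.Y siRNA of log2 -1.41 beside -1.43 for PPP1R14C. The annexin ANXA7 stood at place 7 of this ranking (r = 0.994) and is named here after its values were seen.

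The 5 most like ANXA3 were TIMP2, an inhibitor of matrix metalloproteinases (r = 0.997), the membrane skeleton protein ADD3 (r = 0.995), the zinc exporter SLC30A1 (r = 0.993), the secretory cargo receptor MIA3 (r = 0.993) and SERINC3 (r = 0.993). TIMP2 lay at 8.19 and 8.11 in luciferase cells, 7.58 and 7.45 after H3.Y siRNA and 8.62 and 8.58 in the combined knockdown. ADD3 lay at 7.20 and 7.11, 6.36 and 6.43, and 7.70 and 7.84. All 5 had the order of ANXA3 with no overlap and smaller steps. Such correlations were common, since 200 of the 2557 probe sets, or 7.82%, reached r = 0.95 with PPP1R14C and 136, or 5.32%, with ANXA3. With 3 groups of 2 arrays, any probe set with the same order and like spacing of its groups reaches a high r. Ranked with them, ANXA3 stood at place 26 for PPP1R14C, and PPP1R14C at place 10 for ANXA3.

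**Figure D3:**
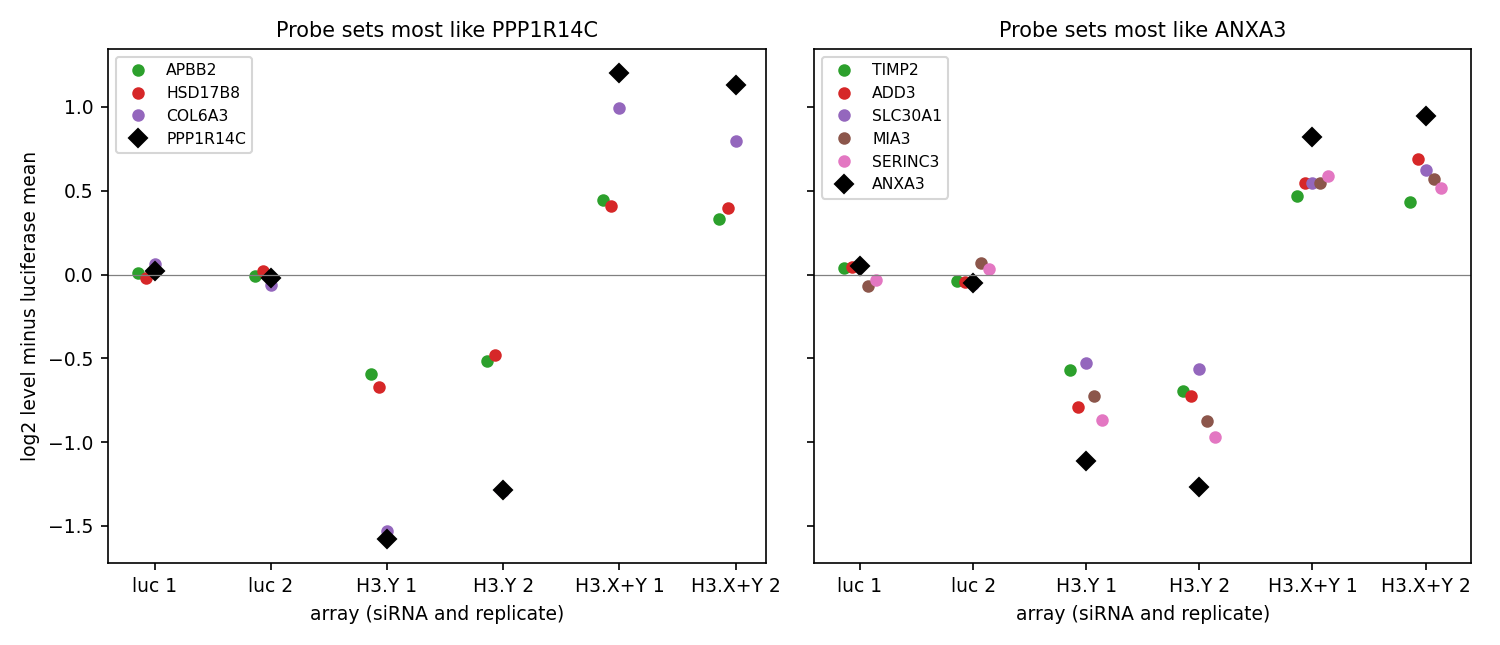
Level on each array minus the gene's luciferase mean, in log2 units, for PPP1R14C (left, diamonds) and ANXA3 (right, diamonds) and the genes of the 5 probe sets most like each (circles). Identical HSD17B8 probe sets are drawn as 1. All are below 0 on both H3.Y arrays and above 0 on both combined arrays, and COL6A3 comes closest to PPP1R14C in size.

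The pathway around PPP1R14C was read from lists of phosphatase subunits and of myosin genes. Of 27 listed catalytic and regulatory subunits of protein phosphatase 1, 25 were measured, and 0 were called by limma in each comparison, with 1, 4 and 9 at an unadjusted p under 0.05 after H3.Y siRNA, in the combined group and across the knockdowns in turn. The shares of all probe sets at that unadjusted p were 13.9%, 15.3% and 19.0%. The smallest p between the knockdowns was that of PPP1CB, the catalytic subunit of myosin phosphatase, at log2 0.60 ± 0.13 (adjusted p = 0.055). PPP1CB lay at 9.54 and 9.61 in luciferase cells, 9.46 and 9.34 after H3.Y siRNA and 9.99 and 10.00 in the combined knockdown, where both arrays were the highest. After H3.Y siRNA the smallest p was that of PPP1R12B, a targeting subunit of myosin phosphatase, at 0.58 ± 0.17 (adjusted p = 0.21). In the combined knockdown it was that of the glycogen targeting subunit PPP1R3C, at 0.78 ± 0.21 (adjusted p = 0.14). The medians of this list were log2 0.10, 0.06 and -0.03 in the same order.

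All 10 genes of the myosin II list, which holds MPRIP beside myosin chains, were measured. By limma 0 were called against luciferase in either knockdown, with 1 and 3 at an unadjusted p under 0.05, beside 13.9% and 15.3% of all probe sets. MYH10, a nonmuscle myosin heavy chain, had the smallest p in both, at log2 -0.47 ± 0.13 (adjusted p = 0.19) and -0.73 ± 0.13 (adjusted p = 0.054). MPRIP, which tethers myosin phosphatase to actin, lay at 9.40 and 9.09 in luciferase cells, 9.64 and 9.14 after H3.Y siRNA and 8.24 and 8.24 in the combined knockdown. Between the knockdowns it was lower by log2 -1.15 ± 0.20 (limma adjusted p = 0.033), where 1.92% of all probe sets were called lower. Its second probe set had nearly the same values on every array, so its difference of -1.16 is no separate reading. The list medians were 0.04 after H3.Y siRNA, 0.02 for the combined group against luciferase and -0.07 for combined against H3.Y.

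Of 7 further annexins listed, 5 had a probe set of 1 symbol. None was called against luciferase by limma, where 1 in each knockdown, ANXA7, had an unadjusted p under 0.05, beside 13.9% and 15.3% of all probe sets. ANXA7, or synexin, promotes membrane fusion in secretion. It lay at 8.63 and 8.62 in luciferase cells, 8.02 and 8.15 after H3.Y siRNA and 9.29 and 9.20 in the combined knockdown, in the order of ANXA3 and with no overlap. Its differences from luciferase were log2 -0.54 ± 0.13 (adjusted p = 0.16) and 0.63 ± 0.13 (adjusted p = 0.080). Between the knockdowns ANXA7 was higher in the combined one by 1.16 ± 0.13 (limma adjusted p = 0.012), and ANXA9, ANXA10, ANXA11 and ANXA13 did not pass. There 2.74% of all probe sets were called higher. Medians of this list were -0.19, -0.06 and 0.02.

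Annexin partners were 17 genes, of which 16 were measured. After H3.Y siRNA 1 was called lower by limma, PLAU, the urokinase plasminogen activator. In the combined knockdown 1 was called higher than in luciferase cells, PLAT, the tissue plasminogen activator that the ANXA2 complex binds. Of all probe sets 0.195% were called lower and 0.859% called higher in these comparisons. At an unadjusted limma p under 0.05 were 6 after H3.Y siRNA, 2 in the combined group and 4 across the knockdowns. The shares of all probe sets at that unadjusted p were 13.9%, 15.3% and 19.0% in turn. PLAU lay at 8.34 and 8.05 in luciferase cells, 6.75 and 6.59 after H3.Y siRNA and 8.48 and 8.75 in the combined knockdown. Its difference after H3.Y siRNA was log2 -1.53 ± 0.17 (limma adjusted p = 0.038), and the combined difference of 0.42 ± 0.17 did not pass (adjusted p = 0.32). PLAT lay at 8.53 and 8.54, 7.70 and 7.91, and 9.48 and 9.41, in the order of ANXA3. It rose by 0.91 ± 0.14 in the combined knockdown (limma adjusted p = 0.034) and differed by -0.73 ± 0.14 after H3.Y siRNA (adjusted p = 0.10). Between the knockdowns both were called higher in the combined one, PLAT by 1.64 ± 0.14 and PLAU by 1.94 ± 0.17, with limma adjusted p of 0.0058 and 0.0067. Of all probe sets 2.74% were called higher in that comparison. S100A10, the partner of ANXA2 and named after its values were seen, lay at 11.63 and 11.45, 10.50 and 11.08, and 11.70 and 11.69, and its difference between the knockdowns was 0.91 ± 0.21 (adjusted p = 0.067). The formyl peptide receptors FPR1, FPR2 and FPR3 lay between 2.34 and 3.41 on all arrays, within the range of the blood markers. List medians were -0.02, 0.06 and 0.12.

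The calls rested on few arrays. That of PLAT against luciferase was lost without either luciferase array and without either combined array, and that of PLAU also without H3.Y replicate 1, with adjusted p from 0.11 to 0.29. Between the knockdowns, leaving out combined replicate 1 or 2 ended the calls of ANXA7, PLAT, PLAU and MPRIP, with adjusted p from 0.054 to 0.20. The call of MPRIP was also lost without H3.Y replicate 1 and without either luciferase array, at adjusted p of 0.089 and 0.069. The directions held in all these fits.

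**Figure D4:**
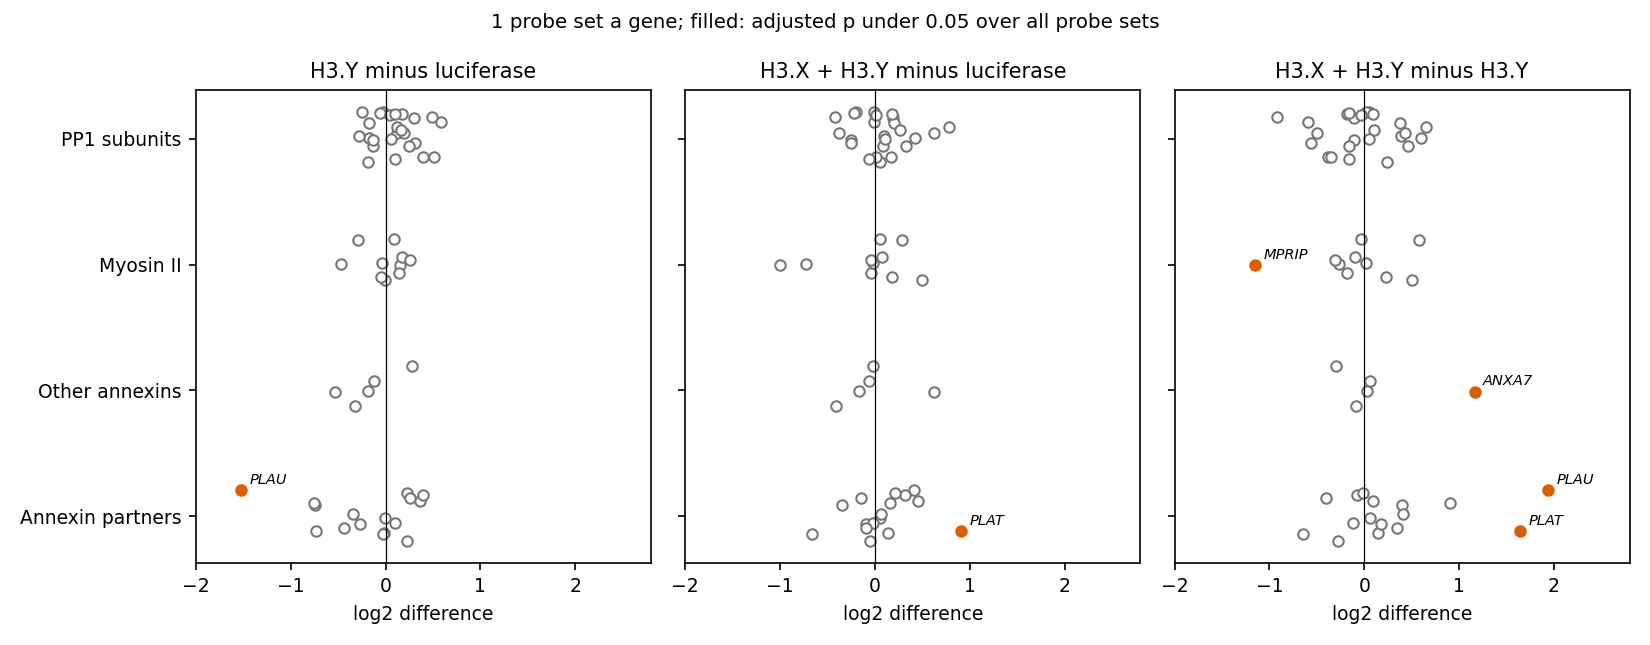
Log2 differences of the measured genes of 4 pathway lists, with 1 probe set a gene and 1 panel for each comparison, where points are spread vertically for legibility. Filled points are genes called by limma over all probe sets and carry their names. Against luciferase, PLAU is called after H3.Y siRNA and PLAT in the combined group. MPRIP, ANXA7, PLAT and PLAU are called when the knockdowns are compared.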

How the data were processed

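RNA of U2OS cells was measured on 6 arrays. The authors deposited log2 expression per probe set, and oligo is the tool named in the submitters' processing notes. Not given in the sources used here were the build, the background correction and how probes were summarised, while the base of the logarithm follows from the range of the values. A shift shared by every transcript would not be visible on arrays brought to 1 scale. All value columns were used, so 0 were left out. Genes were named from the platform annotation, where 19429 of 19460 single-symbol probe sets were looked up by Entrez ID in RefSeq (GRCh38.p14).

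All probe sets were fitted with limma 3.58.1 in R 4.3.3 (lmFit and eBayes, 6 arrays, a mean for each group), at 3 residual and 3.43 prior degrees of freedom. Benjamini-Hochberg adjustment of the two-sided p-values ran over 33297 probe sets in each comparison. Standard errors and 95% intervals are those of the moderated fit. The fit was tested on simulated data. Named genes were all members, the 5 probe sets most like each chosen gene, and called or otherwise lowest-p genes of each list. S100A10, the formyl peptide receptors, VIM, EPCAM and the other epithelial markers were named after their values were seen. For genes with several probe sets, list counts use the brightest. The members and lists were chosen with earlier results of these data known. Results for 1 further gene list are not reported here. Results were recomputed with the replicate number as a block, on the 4 arrays of a comparison alone, after another quantile normalization or centring on medians, without dim probe sets (means in the lowest 25%), with a variance trend, and without each array.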

Additional observations from a re-analysis of the deposited data

How the results depend on the processing

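PPP1R14C and ANXA3 were chosen from these values, so their values under other settings describe how the choice depended on the processing and support nothing. With the replicate block neither would have been chosen, since the limma adjusted p after H3.Y siRNA was 0.0514 for PPP1R14C and 0.0523 for ANXA3. Nor would they on the 4 arrays of that comparison alone, at limma adjusted p of 0.12 and 0.13. PLAU also lost its call after H3.Y siRNA, at a limma adjusted p of 0.0522 with the block and 0.11 on the 4 arrays. The labels give no pairing of the replicate numbers, and deviations of same-numbered arrays correlated at 0.22, 0.28 and 0.12 between the groups. Leaving out 1 array moved PPP1R14C between -1.58 and -1.28 after H3.Y siRNA and between 2.45 and 2.75 across the knockdowns. Between the knockdowns 1 tested member, ANXA1, was called with the replicate block, median centring, the filter on dim probe sets, limma with a trend and without H3.Y replicate 2, against 0 as reported, and 0 to 1 were called when 1 array was left out. The adjusted p of ANXA1 under the first 4 was 0.044, 0.045, 0.035 and 0.029. No tested member was called against luciferase by limma under any alternative.

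Over all probe sets the calls after H3.Y siRNA, 93 as reported, were 192 without dim probe sets, 205 with limma's trend, 0 on the 4 arrays alone and 0 to 629 when 1 array was left out. In the combined knockdown, 614 became 927 without dim probe sets, 960 with the trend and 0 to 644 without 1 array. Across the knockdowns, 1554 became 448 on the 4 arrays alone and 12 to 1641 without 1 array, with the lowest count when combined replicate 1 was left out.

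Differences near 0 changed sign and stayed uncalled. Quantile normalization again gave 0.033 for ANXA2 and 0.0186 for ANXA5 after H3.Y siRNA. Leaving out 1 array after H3.Y siRNA moved PPP1R14A from -0.181 to 0.165, PPP1R14D from -0.0915 to 0.379, ANXA2 from -0.104 to 0.0266, ANXA4 from -0.169 to 0.0469 and ANXA5 from -0.182 to 0.0449. In the combined knockdown it moved PPP1R14A from -0.289 to 0.0558, PPP1R14D from -0.0128 to 0.458, ANXA2 from -0.0521 to 0.0786 and ANXA6 from -0.190 to 0.0307. Between the knockdowns PPP1R14D ran from -0.135 to 0.292 and PPP1R14A from -0.221 to 0.0036. With 2 arrays per group, the array count limits what could be called. A lone array was assumed to vary like those of the other groups. The cause of these changes was not tested.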
